A study of Mus musculus with 10 samples.

Results

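The genes of collagen chains, of the lysyl oxidases that cross-link them, of the matrix metalloproteinases (MMPs) that cut matrix proteins and of the tissue inhibitors of these proteases (TIMPs) were examined in whole mouse liver. A gene was a member when it was protein-coding, had a symbol of the pattern Col with a chain number, Lox or Loxl, Mmp or Timp, and held at least 10 estimated counts over the 10 libraries. This gave 59 genes of 75 with such a symbol, against 14663 protein-coding genes with at least 10 counts and 55385 gene IDs in all. They were 35 collagen chains, 5 lysyl oxidases, 15 MMPs and 4 TIMPs. Just inside the minimum lay Mmp8 with 10 counts and Col6a5 with 11, and just outside it Col17a1 with 9 and Mmp3 with 8. Col2a1, the cartilage collagen chain, and Col9a1, Mmp1b, Mmp10 and Mmp20 were listed at 0 in every library.

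The study compared 5 libraries whose titles read Alk1-HEC-KO with 5 libraries titled Control, whose genotype is given as Ctrl. All 10 came from RNA of frozen liver homogenate sequenced with BGISeq-500 protocols, and held 20.91 to 21.56 M estimated counts each. Alk1, another name of Acvrl1, is a receptor of endothelial cells that binds BMP ligands. The labels give no strain, age, sex, treatment or driver of the deletion, do not spell out HEC, and do not say whether each library is a different animal, so that p-values measure only the spread between libraries. Values are given in TPM, a level per transcript length scaled to the same sum in each library, or in CPM, counts scaled for library size and by TMM factors, which are not per length.

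Collagen chains assemble as helical bundles of chains. Basement membrane collagens, led by type IV, form sheets under endothelium and epithelium, whereas fibrillar collagens such as types I and III form the fibres of interstitial matrix and scars. In healthy liver the sinusoids have a sparse, discontinuous basement membrane, and larger vessels and ducts a continuous one. Stellate cells and portal fibroblasts are the liver's best known sources of fibrillar collagen.

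The mean level of the targeted gene went against its label. Acvrl1 (ENSMUSG00000000530.16) averaged 1.36 ± 0.331 TPM in libraries labelled Alk1-HEC-KO and 0.669 ± 0.331 TPM in Control libraries (SD, n = 5 each). The ranges, 1.12 to 1.92 TPM and 0.296 to 1.05 TPM in that order, did not overlap, as for 1.31% of all tested genes. Its log2 fold change of 0.99 ± 0.32 (SE) did not pass (quasi-likelihood test of edgeR, adjusted p = 0.336). The group is therefore called labelled knockout, and each direction rests on the label. Expression summed over the gene cannot tell whether an exon is missing. Hepatocyte markers summed to 41100 to 77300 TPM in labelled knockout libraries and 40800 to 72600 TPM in Control libraries, so that the liver's main cell type was strongly represented. Labelled knockout library 4 had the highest sum of all 10 libraries for each endothelial, stellate, portal fibroblast, smooth muscle, Kupffer cell, leukocyte and cholangiocyte marker list. Labelled knockout libraries 4 and 5 and Control library 4 held over 1000 TPM of the acute-phase gene Saa1. In bulk liver, more cells of a type and more RNA per cell cannot be told apart.

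No member passed the test between the groups. Of the 59 members, 33 were abundant enough for the fit across 12872 genes, and 0 were called higher or lower (quasi-likelihood test of edgeR, adjusted p under 0.05 by the Benjamini-Hochberg method), where 0.186% of all tested genes were called higher and 0.171% lower. At an unadjusted p under 0.05 there were 4 members, Col4a1, Col4a2, Col15a1 and Mmp14, all higher, against 8.44% of all tested genes. DESeq2 called 1 member, Col4a1, where it called 0.638% of all genes higher. Among the 33 tested members, 28 had a log2 fold change above 0 and 5 below it, or 84.8% above 0, against 50.4% of all tested genes, with a median of 0.33 against 0.00 over all genes. Of the 59 members, 12 overlap another annotated gene with at least 10 counts, by the spans of the genes from start to end. Strand use in the counting is not stated, so that reads of such pairs could be shared where exons overlap, which was not checked.

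Much of that direction came with labelled knockout library 4. It had the highest TPM of the 10 libraries for 20 of the 33 tested members and for 30 of all 59, against 13.3% of all tested genes. Without it, 13 tested members were above 0 and 20 below, with a median of -0.12 against -0.01 over all genes. The numbers in the deposited file names fall into 3 runs of near-consecutive values, whose meaning is not stated. The run of labelled knockout libraries 2, 4 and 5 has no Control library, so with the run as a covariate these 3 do not bear on the group difference. In that fit 11 tested members were above 0 and 22 below.

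**Figure D1:**
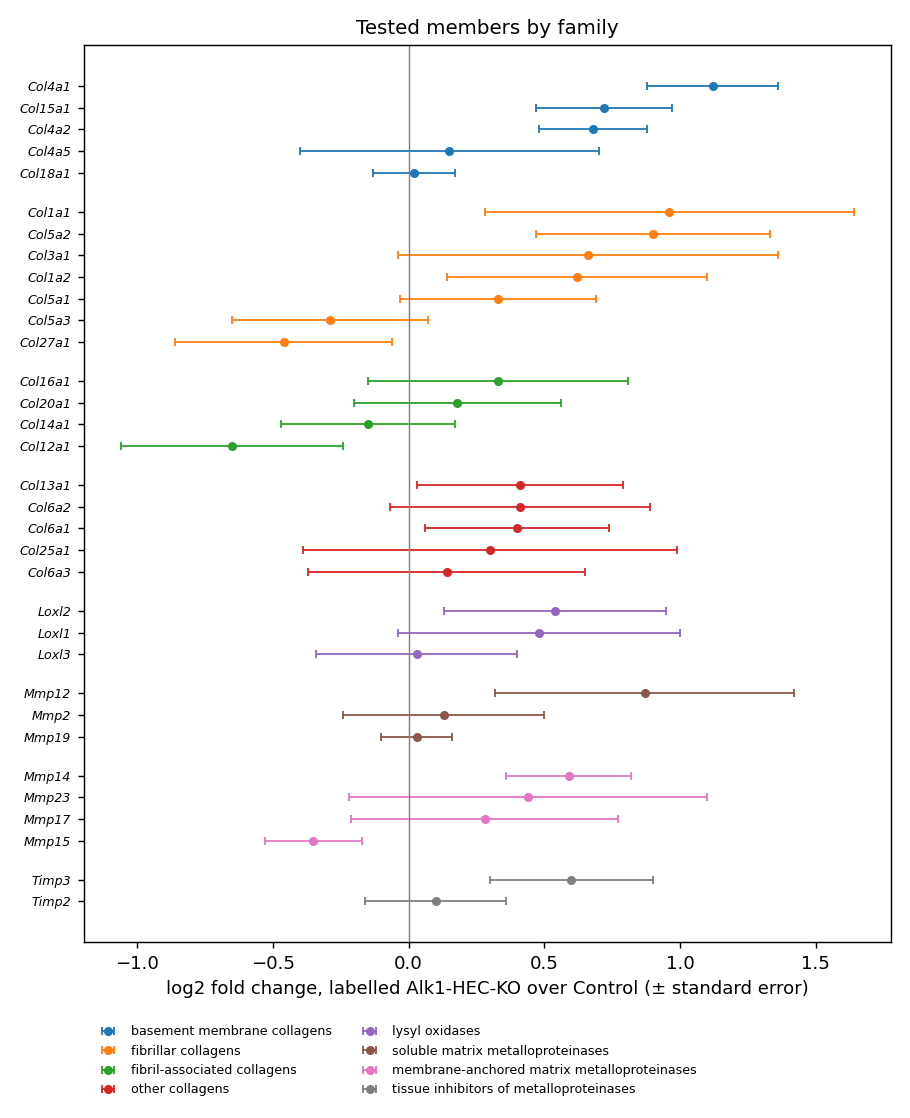
Log2 fold change (labelled Alk1-HEC-KO over Control) of each of the 33 tested members, with bars of ± 1 standard error, grouped by family. Col4a1 has the highest value, 1.12, and the fibrillar collagen genes Col1a1, Col1a2 and Col3a1 have bars that are wide for their size.

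Of the 8 basement membrane collagen genes, 5 were tested, all 5 were above 0 and none passed. The median log2 fold change was 0.68, and 0.45 without labelled knockout library 4. Type IV collagen of most basement membranes is built from the products of Col4a1 and Col4a2, which lie head to head on mouse chromosome 8. The annotated starts of the pair overlap by 22 bases (Col4a1, ENSMUSG00000031502.11, minus strand, chr8:11198423-11312826; Col4a2, ENSMUSG00000031503.13, plus strand, chr8:11312805-11449287; GRCm38).

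Col4a1 was the member with the smallest p in the fit. Its level was 4.89, 9.71, 9.42, 14.9 and 5.18 TPM in labelled knockout libraries 1 to 5, against 3.80, 4.21, 2.83, 6.96 and 3.50 TPM in Control libraries 1 to 5. Labelled knockout libraries 1 and 5 lay between Control library 4 and the other Control libraries, so the groups overlapped in TPM. In counts scaled by TMM they did not: Col4a1 had 20.7, 30.9, 36.7, 57.3 and 26.1 CPM in labelled knockout libraries, against 14.2, 16.9, 12.6, 18.5 and 16.8 CPM in Control libraries. The ratio of counts to TPM, which follows the length of the transcripts that reads were assigned to, was 1.41 in Control library 4 relative to the median gene of that library, against 1.73 to 2.30 in the other Control libraries and 1.88 to 2.18 in labelled knockout libraries. On the log2 scale Col4a1 differed by 1.12 ± 0.24 (fold change ± standard error; edgeR, adjusted p = 0.0902), short of the threshold.

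The call for Col4a1 depended on the setting while its sign did not. The gene passed by DESeq2 (adjusted p = 0.00124), by edgeR with no filter on low counts (adjusted p = 0.0147) and by edgeR without labelled knockout library 1 (log2 fold change 1.26, adjusted p = 0.0177). With any other single library left out, Col4a1 did not pass (edgeR, adjusted p = 0.0792 to 0.224). Limma on log2(TPM + 1) and log2(TPM + 0.1) did not call it either (adjusted p = 0.362 and 0.347). The estimate was 0.86 without labelled knockout library 4 (adjusted p = 0.0883), 0.99 with offsets for transcript length (adjusted p = 0.287) and 0.85 with the run as a covariate (adjusted p = 1), all by edgeR. Within the run of labelled knockout library 1, its 20.7 CPM stood above 14.2 and 16.9 CPM in Control libraries 1 and 2. Within the run of labelled knockout library 3, its 36.7 CPM stood above 12.6, 18.5 and 16.8 CPM in Control libraries 3 to 5. Since the groups did not overlap in CPM, this order within runs was fixed and is no separate support.

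Col4a2 showed the same arrangement at a smaller size. Its level was 2.94, 3.33, 4.39, 6.01 and 2.77 TPM in labelled knockout libraries, against 2.25, 2.32, 1.62, 2.82 and 2.56 TPM in Control libraries. Labelled knockout library 5 was just under Control library 4, and the groups otherwise stood apart. In CPM they did not overlap, with 15.8 to 34.5 in labelled knockout libraries and 11.9 to 15.3 in Control libraries. Its log2 fold change was 0.68 ± 0.20 (SE; edgeR, adjusted p = 0.283), and 0.45 without labelled knockout library 4. The TPM of Col4a1 over that of Col4a2 averaged 2.21 ± 0.499 in labelled knockout libraries and 1.82 ± 0.402 in Control libraries (SD, n = 5 each), ranges that overlapped. Col4a1 and Col4a2 were the tested members whose CPM did not overlap between the groups, both higher in labelled knockout libraries, or 2 of 33 where 0.948% of all tested genes were apart in that direction. No tested member was apart in the lower direction, against 0.73% of those genes. In TPM no tested member was apart, against 1.31% of all tested genes higher and 0.319% lower.

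The promoter windows of Col4a1 and Col4a2 are shown because these neighbours had the smallest p-values of the 33 tested members and start from the same stretch of chromosome 8. RefSeq promoter windows of GRCm38.p6, 250 bases before to 50 after the start, were found for 44 of the 59 members. The window of Col4a1 is chr8:11312777-11313076 on the minus strand and that of Col4a2 is chr8:11312555-11312854 on the plus strand, so that they share 78 bases, read from opposite strands. Capitals mark GC boxes (GGGCGG, or CCGCCC on the other strand) and CCAAT boxes (CCAAT or ATTGG).
Col4a1: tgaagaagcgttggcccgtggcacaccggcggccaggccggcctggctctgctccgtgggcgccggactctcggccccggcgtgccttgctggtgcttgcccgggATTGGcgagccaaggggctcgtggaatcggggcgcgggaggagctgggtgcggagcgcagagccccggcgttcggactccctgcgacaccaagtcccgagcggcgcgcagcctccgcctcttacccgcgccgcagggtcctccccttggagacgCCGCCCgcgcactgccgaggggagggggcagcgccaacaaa
Col4a2: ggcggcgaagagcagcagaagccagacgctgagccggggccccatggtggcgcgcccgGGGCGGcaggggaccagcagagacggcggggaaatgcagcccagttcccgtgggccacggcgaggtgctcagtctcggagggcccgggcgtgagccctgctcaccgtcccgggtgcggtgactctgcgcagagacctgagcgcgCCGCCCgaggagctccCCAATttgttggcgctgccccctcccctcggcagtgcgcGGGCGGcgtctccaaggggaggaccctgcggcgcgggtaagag
The Col4a1 window held 1 GC box and 1 CCAAT box and the Col4a2 window 3 GC boxes and 1 CCAAT box, and neither held a TATA box (TATAAA or TTTATA). The GC box of the Col4a1 window lies in the shared bases and is the same site as the last GC box printed for Col4a2. Of 32851 promoter windows of the same length, 35.7% held a GC box, 37.4% a CCAAT box and 13.6% a TATA box. The SMAD element CAGAC (or GTCTG) was found 1 time in the Col4a2 window and not in that of Col4a1, and 49.6% of all windows held it. The element GGCGCC, a motif of SMADs in BMP signalling, was found 1 time in the Col4a1 window and not in that of Col4a2, against 11.9% of all windows. Such matches describe letters and not binding.

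Col15a1 and Col18a1 encode the multiplexin collagens XV and XVIII, which sit where basement membranes meet the matrix outside them, and the end of collagen XVIII is cut off as endostatin. Col15a1 (ENSMUSG00000028339.17) had 3.60, 7.64, 6.02, 5.89 and 4.80 TPM in labelled knockout libraries, against 2.53, 4.70, 3.39, 4.22 and 3.30 TPM in Control libraries. The 4 labelled knockout libraries other than library 1 lay above all 5 Control libraries. On the log2 scale it differed by 0.72 ± 0.25 (SE; edgeR, adjusted p = 0.398). Without labelled knockout library 1 it was 0.91 and passed (edgeR, adjusted p = 0.015), and with the run as a covariate it was 0.26.

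Col18a1 (ENSMUSG00000001435.15) was by far the most abundant collagen gene per length. It had 145, 262, 243, 171 and 143 TPM in labelled knockout libraries, against 158, 212, 119, 218 and 199 TPM in Control libraries. The groups were interleaved, with a log2 fold change of 0.02 ± 0.15 (SE; edgeR, adjusted p = 0.983). It made up 64.6% to 86.0% of the TPM of all collagen members in labelled knockout libraries and 79.5% to 87.4% in Control libraries. The lowest share was that of labelled knockout library 4. The gene of another type IV chain, Col4a5, was near the lower end of detection, at 0.237 ± 0.197 TPM in labelled knockout libraries and 0.190 ± 0.0842 TPM in Control libraries (SD, n = 5 each).

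**Figure D2:**
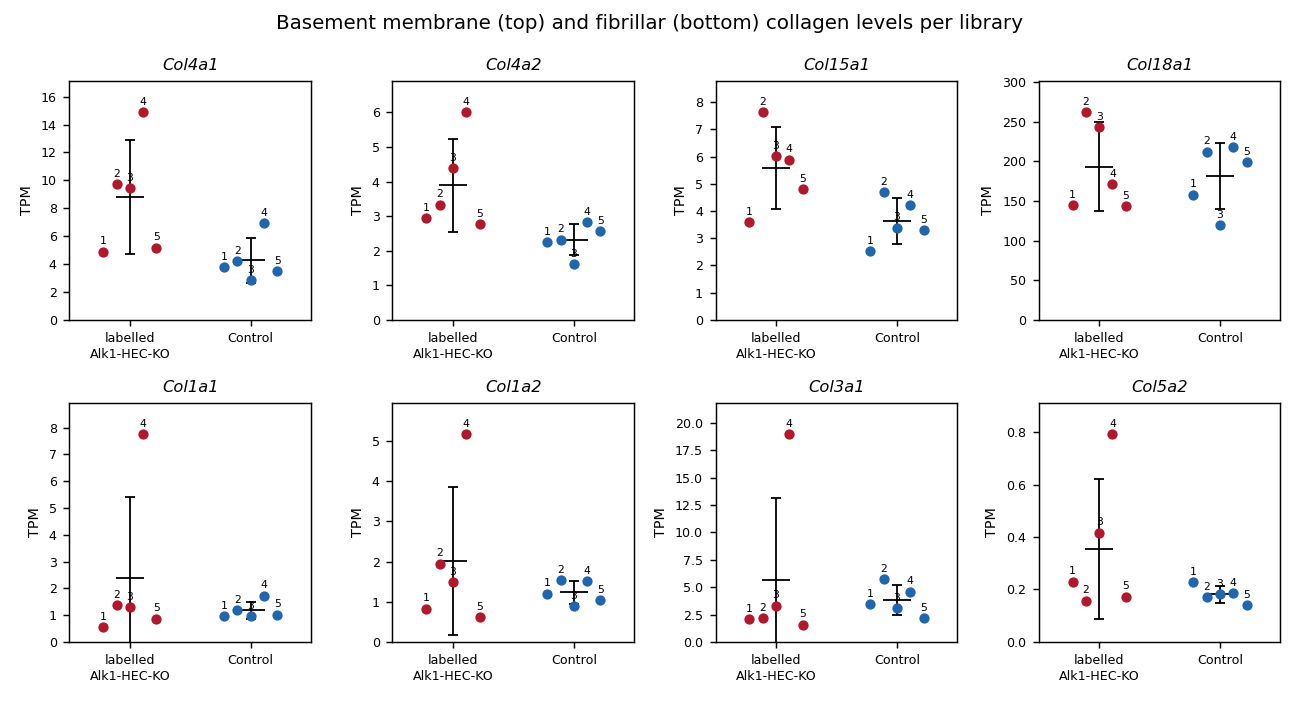
TPM of 4 basement membrane collagen genes (top) and 4 fibrillar collagen genes (bottom) in each library, numbered by replicate, with the mean and SD (n = 5 each), labelled Alk1-HEC-KO left of Control. Col4a1 and Col4a2 are higher in most labelled knockout libraries, Col18a1 is interleaved, and the fibrillar genes Col1a1 and Col3a1 reach 7.76 and 19.0 TPM in labelled knockout library 4 alone.

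Marker levels of endothelial and immune cells stood as follows beside the type IV genes. The 9 continuous endothelium markers summed to 85.3 to 160 TPM in labelled knockout libraries and 42.1 to 75.1 TPM in Control libraries. Cd34, Emcn, Cldn5, Ly6c1 and Cav1, 5 of the 9, were called higher (edgeR, adjusted p under 0.05), where 0.186% of all tested genes were. Vwf, the von Willebrand factor gene of the same list, had a log2 fold change of -1.16 ± 0.39 (SE) and did not pass (edgeR, adjusted p = 0.379). All 8 pan-endothelial markers were above 0 on the log2 scale with 0 called, at sums of 39.3 to 78.6 TPM in labelled knockout libraries and 28.0 to 46.9 TPM in Control libraries. The 8 sinusoidal endothelium markers were split 4 and 4, at 45.0 to 89.8 TPM in labelled knockout libraries and 40.8 to 89.1 TPM in Control libraries. All 6 Kupffer cell markers and all 6 tested of 9 leukocyte markers were above 0, with 0 called. Kupffer cell markers summed to 117 to 249 TPM in labelled knockout libraries and 77.2 to 126 TPM in Control libraries. Leukocyte markers summed to 81.1 to 218 TPM in labelled knockout libraries and 68.7 to 93.3 TPM in Control libraries. The part of these cells in the values of Col4a1, Col4a2 and Col15a1 was not tested.

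Of the 9 fibrillar collagen genes, 7 were tested, with 5 above 0 and 2 below and none called. Their median log2 fold change was 0.62, and -0.29 without labelled knockout library 4, when 1 was above 0 and 6 below. Col1a1 (ENSMUSG00000001506.10), the major chain of type I collagen, had 0.559, 1.37, 1.29, 7.76 and 0.865 TPM in labelled knockout libraries, against 0.968, 1.19, 0.963, 1.73 and 1.02 TPM in Control libraries. Labelled knockout library 4 stood far above the other 9, which overlapped. Col1a1 had a log2 fold change of 0.96 ± 0.68 (SE; edgeR, adjusted p = 0.745), and -0.29 without that library.

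Col1a2 and Col3a1 were arranged likewise. Col1a2, the other chain of type I collagen, had 0.829, 1.95, 1.48, 5.18 and 0.609 TPM in labelled knockout libraries, against 1.20, 1.53, 0.887, 1.51 and 1.05 TPM in Control libraries. Col3a1, the chain of type III collagen, had 2.06, 2.18, 3.31, 19.0 and 1.57 TPM in labelled knockout libraries, against 3.48, 5.73, 3.12, 4.60 and 2.20 TPM in Control libraries. For Col3a1 the 4 labelled knockout libraries other than library 4 lay in or under the Control range. On the log2 scale Col3a1 differed by 0.66 ± 0.70 (SE; edgeR, adjusted p = 0.84), and by -0.66 without labelled knockout library 4. Col1a2 differed by 0.62 ± 0.48 (SE; edgeR, adjusted p = 0.765), and by -0.15 without it.

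The type V chains, which join type I fibrils and bear on their width, differed less between libraries. Col5a2 averaged 0.354 ± 0.267 TPM in labelled knockout libraries and 0.181 ± 0.0321 TPM in Control libraries, and Col5a1 averaged 1.24 ± 0.754 TPM in labelled knockout libraries and 1.02 ± 0.143 TPM in Control libraries (SD, n = 5 each). The log2 fold change of Col5a2 was 0.90 ± 0.43 (SE; edgeR, adjusted p = 0.601), and 0.34 without labelled knockout library 4. That of Col5a1 was 0.33 ± 0.36 (SE; edgeR, adjusted p = 0.84), and -0.09 without that library. Col5a3 and Col27a1 were the fibrillar genes below 0, at log2 fold changes of -0.29 (standard error 0.36) and -0.46 (standard error 0.40), neither called. Both were highest in Control library 1, at 5.83 TPM for Col5a3 and 5.41 TPM for Col27a1. Together they held enough of the fibrillar sum that the rest is given apart: without them the fibrillar sum was 4.12 to 35.7 TPM in labelled knockout libraries and 5.54 to 10.2 TPM in Control libraries.

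The summed markers of cells that make fibrillar collagen were also highest in labelled knockout library 4. The 9 stellate cell markers summed to 45.6 TPM there, to 19.4 to 34.0 TPM in the other labelled knockout libraries and to 24.0 to 31.8 TPM in Control libraries. The 9 markers of portal fibroblasts and mesothelium summed to 7.10 to 20.4 TPM in labelled knockout libraries, the highest in library 4, and to 6.38 to 9.80 TPM in Control libraries. Cd34 stands in this list and in that of continuous endothelium, and without it the other 8 summed to 5.54 to 12.7 TPM in labelled knockout libraries and 6.01 to 9.23 TPM in Control libraries, which overlapped. The 6 smooth muscle markers summed to 21.7 TPM in labelled knockout library 4, to 6.32 to 7.65 TPM in the other 4, and to 6.11 to 19.5 TPM in Control libraries. Among the single markers of these lists, Reln, Hand2, Gas1, Msln, Acta2, Myh11 and Cnn1 were highest in a Control library. The others were highest in labelled knockout library 4. Of 7 markers of cartilage, bone and dermis, Acan, Bglap, Ibsp, Krt5 and Krt14 were listed at 0 in every library. The part of these cells in the fibrillar values was not tested.

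The contrast of basement membrane with fibrillar collagens varied with the genes and libraries in it. On the log2 scale of summed TPM, basement membrane minus fibrillar was 4.02, 4.58, 4.12, 2.23 and 4.35 in labelled knockout libraries, against 3.18, 3.64, 3.23, 4.23 and 4.40 in Control libraries. Apart from labelled knockout library 4, the lowest of all, the groups overlapped. The mean was 3.86 ± 0.94 in labelled knockout libraries and 3.73 ± 0.56 in Control libraries (SD, n = 5 each), a difference of 0.13 that is smaller than either SD. That difference was 0.53 without labelled knockout library 4 and -0.06 without labelled knockout library 2, and 0.76 without the most abundant gene of each family.

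With type IV chains alone in place of all basement membrane collagens, the difference was larger. Type IV minus fibrillar was -0.28, 0.18, -0.10, -0.97 and 0.08 in labelled knockout libraries, against -1.53, -1.38, -1.57, -0.30 and -0.58 in Control libraries. Labelled knockout libraries 1, 2, 3 and 5 lay above all Control libraries, and library 4 lay within the Control range. The means were -0.22 ± 0.46 in labelled knockout libraries and -1.07 ± 0.59 in Control libraries (SD, n = 5 each), a difference of 0.85, or 1.04 without labelled knockout library 4. No p is given for these sums, since the members were chosen with results of these libraries known. The type IV sum alone was 7.94, 13.4, 14.1, 21.6 and 8.06 TPM in labelled knockout libraries, against 6.39, 6.87, 4.56, 10.1 and 6.60 TPM in Control libraries. The fibrillar sum was 9.64, 11.8, 15.2, 42.4 and 7.64 TPM in labelled knockout libraries, against 18.5, 17.9, 13.5, 12.4 and 9.89 TPM in Control libraries.

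**Figure D3:**
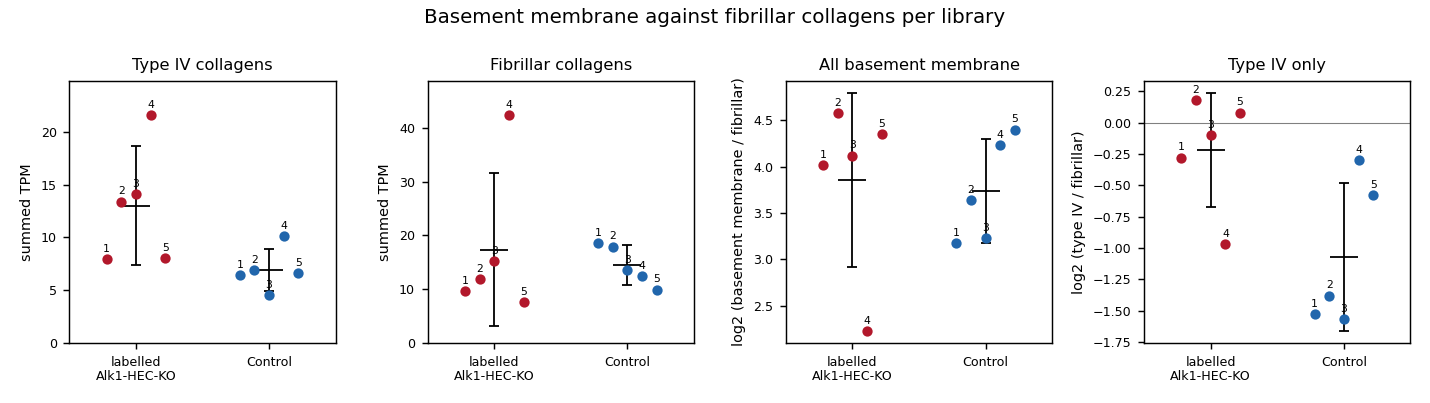
Summed TPM of type IV and of fibrillar collagen genes (left panels) and the log2 ratios of all basement membrane or type IV sums to the fibrillar sum (right panels) in each library, with the mean and SD (n = 5 each), labelled Alk1-HEC-KO left of Control. The type IV to fibrillar ratio averages -0.22 in labelled knockout libraries and -1.07 in Control libraries, while with all basement membrane genes the mean is 3.86 in labelled knockout libraries and 3.73 in Control libraries.

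The remaining collagens gave no called gene. Fibril-associated collagens, which decorate the surface of fibrils, had a median of 0.01 over 4 tested genes, with 2 above 0 and 2 below. Col14a1, the most abundant of them, averaged 5.60 ± 3.15 TPM in labelled knockout libraries and 5.82 ± 2.01 TPM in Control libraries (SD, n = 5 each). Of the family, Col12a1 had a log2 fold change of -0.65 (standard error 0.41), Col16a1 0.33 (0.48) and Col20a1 0.18 (0.38). Reads of Col20a1 could come from BX649560.1, which overlaps it on the same strand.

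Beaded filament, network, anchoring and transmembrane collagens had a median of 0.40, with all 5 tested genes above 0, and -0.12 with 1 above 0 and 4 below without labelled knockout library 4. Col6a1, a chain of the microfibrillar type VI collagen, had 0.793, 1.43, 1.23, 3.40 and 0.959 TPM in labelled knockout libraries, against 1.06, 1.21, 1.07, 1.33 and 0.941 TPM in Control libraries. Here again library 4 stood apart and the rest overlapped, and Col6a2 and Col6a3 were highest in the same library, at 3.22 and 1.78 TPM. The transmembrane collagen genes Col13a1 and Col25a1 had log2 fold changes of 0.41 (standard error 0.38) and 0.30 (standard error 0.69).

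Lysyl oxidases oxidise lysine in collagen and elastin so that the chains can be cross-linked. Of the 5 genes, 3 were tested, all above 0 with a median of 0.48 and none called, and the median was -0.11 without labelled knockout library 4. Loxl1, best known for its part in elastic fibres, had 0.212, 0.664, 0.281, 1.45 and 0.506 TPM in labelled knockout libraries, against 0.354, 0.281, 0.417, 0.871 and 0.240 TPM in Control libraries. Library 4 was the highest of each group, by replicate numbers that do not pair the libraries. Log2 fold changes were 0.48 ± 0.52 for Loxl1, 0.54 ± 0.41 for Loxl2, which acts on type IV collagen, and 0.03 ± 0.37 for Loxl3 (SE). Without labelled knockout library 4, Loxl2 was at 0.04. The span of Loxl2 overlaps the antisense gene Gm27177 and that of Loxl3 overlaps Htra2, and whether exons overlap was not checked. Lox itself had 17 counts in labelled knockout libraries and 14 in Control libraries, with 12 of the 17 in library 4, and Loxl4 had 42 in labelled knockout libraries and 34 in Control libraries.

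Of the MMPs, Mmp14, Mmp15 and Mmp19 carried most of the transcript level, at 83.0% to 94.2% of the summed MMP TPM in labelled knockout libraries and 89.9% to 94.8% in Control libraries. Mmp14 (ENSMUSG00000000957.11) encodes MT1-MMP, a membrane-anchored collagenase that also activates the gelatinase MMP2. It had 4.64, 14.1, 8.42, 9.28 and 10 TPM in labelled knockout libraries, against 5.36, 7.2, 3.91, 8.15 and 6.01 TPM in Control libraries. The 4 labelled knockout libraries other than library 1 exceeded every Control library, and library 1 was lower than all but Control library 3. Its log2 fold change of 0.59 ± 0.23 (SE) did not pass (edgeR, adjusted p = 0.516). The estimate was 0.58 without labelled knockout library 4 and -0.04 with the run as a covariate.

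The other membrane-anchored MMPs did not share that direction throughout. Mmp15, encoding the related MT2-MMP, had 11.7, 12.3, 17.2, 15.0 and 6.74 TPM in labelled knockout libraries, against 13.3, 15.2, 10.6, 15.8 and 18.8 TPM in Control libraries. Labelled knockout library 5 was the lowest and Control library 5 the highest, with the rest mixed. Mmp15 had a log2 fold change of -0.35 ± 0.18 (SE; edgeR, adjusted p = 0.63). Mmp23 had a log2 fold change of 0.44 (standard error 0.66), with 2.38 TPM in labelled knockout library 4 and 0.183 to 0.578 TPM in the other 4. Mmp17 had one of 0.28 (standard error 0.49). The family's median was 0.36, and -0.12 without labelled knockout library 4.

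Among the soluble MMPs, 3 of 10 were tested. Mmp19, the most abundant, had 12.7, 20.3, 19.2, 11.8 and 13.6 TPM in labelled knockout libraries, against 12.5, 16.8, 12.3, 17.1 and 14.1 TPM in Control libraries. The groups overlapped fully, with a log2 fold change of 0.03 ± 0.13 (SE; edgeR, adjusted p = 0.962). The gelatinase gene Mmp2 averaged 1.14 ± 0.836 TPM in labelled knockout libraries and 0.862 ± 0.393 TPM in Control libraries (SD, n = 5 each). Mmp12, the macrophage metalloelastase gene, had 0.125, 0.657, 0.189, 0.763 and 0.780 TPM in labelled knockout libraries, against 0.176, 0.239, 0.402, 0.492 and 0.234 TPM in Control libraries. Labelled knockout libraries 2, 4 and 5 were the highest of the 10, and libraries 1 and 3 were among the lowest. Its log2 fold change was 0.87 (standard error 0.55), and -0.83 with the run as a covariate. The part of the Kupffer cell and leukocyte markers given above in the Mmp12 value was not tested.

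TIMPs block active MMPs, and TIMP3 is bound to matrix. Timp2 and Timp3 made up 94.9% to 99.7% of TIMP TPM in labelled knockout libraries and 98.2% to 100% in Control libraries. Timp3 had 5.49, 4.71, 4.68, 7.96 and 2.57 TPM in labelled knockout libraries, against 3.68, 5.80, 1.80, 2.27 and 2.56 TPM in Control libraries. Control library 2 and labelled knockout library 5 kept the groups from separating. Timp3 had a log2 fold change of 0.60 ± 0.30 (SE; edgeR, adjusted p = 0.614), and 0.37 without labelled knockout library 4. Timp3 overlaps Syn3 on the other strand. Timp2 had a log2 fold change of 0.10 (standard error 0.26).

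**Figure D4:**
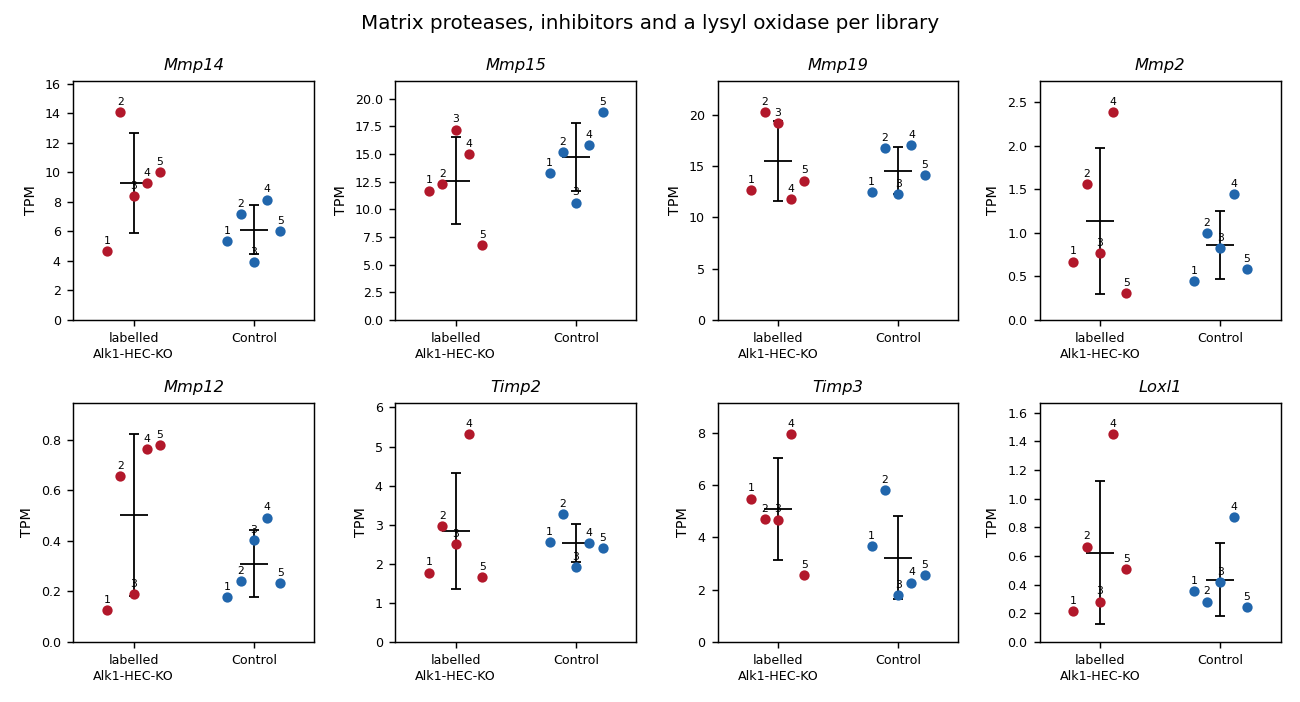
TPM of 5 matrix metalloproteinase genes, 2 TIMP genes and the lysyl oxidase gene Loxl1 in each library, numbered by replicate, with the mean and SD (n = 5 each), labelled Alk1-HEC-KO left of Control. Mmp14 is above every Control library in 4 of 5 labelled knockout libraries, Mmp19 is interleaved, and Timp2 and Loxl1 are highest in labelled knockout library 4.

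The 26 untested members held 10 to 125 counts over all libraries. The minimum of 10 counts was set on the total, so a member with few counts in 1 group entered through the other, and no p is given for such members. Counts are given for each group, and the exact interval given for the ratio of Mmp11 covers counting error only.

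Col28a1 (ENSMUSG00000068794.7, minus strand, chr6:7997808-8192617, GRCm38) was listed in 1 group only. It encodes the chain of collagen XXVIII, known in mouse mainly from basement membrane around Schwann cells of peripheral nerve. It had 2, 8, 6, 25 and 10 counts in labelled knockout libraries 1 to 5 and 0 counts in each of the 5 Control libraries. With 3 counts put in place of 0 for the Control group, the ratio after scaling for library size was 16.3. It was 10.4 without labelled knockout library 4, which held 25 of the 51 counts. These ratios leave out the counting error of the labelled knockout counts, and no exact interval is given for this gene. The gene entered the members through the labelled knockout libraries alone, so that these values describe it and test nothing. In fits that kept such low genes edgeR called it, and for the same reason those calls are no support. With 0 counts in every Control library, the order within each run of file numbers was fixed and adds nothing.

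The other low-count members were less clear. Timp4 had 13 counts in labelled knockout libraries and 2 in Control libraries, a ratio of 6.22 after scaling for library size. Like Col28a1, it became a member through the labelled knockout libraries, so no interval is given and its values test nothing. All 5 labelled knockout libraries had at least 2 counts, and the Control counts lay in library 5. Mmp11, the stromelysin-3 gene, had 97 counts in labelled knockout libraries and 28 in Control libraries, a ratio of 3.31 (95% exact interval 2.16 to 5.24; exact permutation p = 0.056). Its span overlaps that of Chchd10 on the other strand, which held 130439 counts. Reads could be shared if exons overlap, which was not checked. Timp1, a TIMP that is low in resting liver, had 16 counts in labelled knockout libraries, 10 of them in library 4, and 4 in Control libraries. Mmp9, a gelatinase of neutrophils and macrophages, had 27 counts in labelled knockout libraries and 67 in Control libraries, 51 of which were in Control library 3. Col9a3 had 8 counts in labelled knockout libraries and 15 in Control libraries, and Col6a5 had 1 in labelled knockout libraries and 10 in Control libraries. The type IV genes Col4a3, Col4a4 and Col4a6 held 44, 18 and 8 counts in labelled knockout libraries and 24, 16 and 13 in Control libraries. The mean TPM of Col4a3 ran the other way to its counts, at 0.0543 in labelled knockout libraries and 0.0949 in Control libraries.

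**Figure D5:**
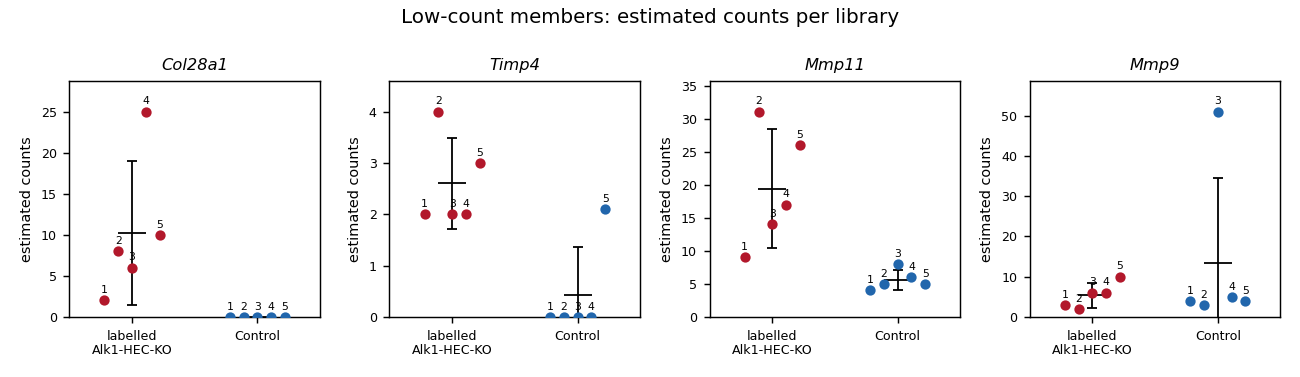
Estimated counts of 4 members below the filter in each library, numbered by replicate, with the mean and SD (n = 5 each), labelled Alk1-HEC-KO left of Control. Col28a1 has 2 to 25 counts in labelled knockout libraries and 0 in all Control libraries, and the 51 counts of Mmp9 in Control library 3 stand alone.

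Other genes of matrix assembly and turnover, taken from lists by role, also gave no called gene. Of 19 tested genes of collagen chain modification and processing, 12 were above 0 and 7 below, with a median log2 fold change of 0.11. Pcolce2, a procollagen C-proteinase enhancer, had 0.593 ± 0.214 TPM in labelled knockout libraries and 0.203 ± 0.0495 TPM in Control libraries (SD, n = 5 each; edgeR log2 fold change 1.14, standard error 0.34, adjusted p = 0.283). Bmp1, the C-proteinase itself, was at 0.31 (standard error 0.18), and P4hb, a subunit of prolyl hydroxylase and the most abundant of the list, at -0.11 (standard error 0.15). Without labelled knockout library 4 the list's median was -0.03.

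The basement membrane partners of type IV collagen had a median of 0.37 over 10 tested genes, 9 above 0 and 1 below, and 0.07 without labelled knockout library 4. Hspg2, the gene of perlecan, had 6.35, 4.23, 7.74, 10.4 and 2.62 TPM in labelled knockout libraries, against 3.74, 5.20, 3.21, 1.17 and 2.69 TPM in Control libraries. Labelled knockout libraries 1, 3 and 4 exceeded every Control library, and libraries 2 and 5 lay within the Control range. Perlecan's gene had a log2 fold change of 0.72 ± 0.30 (SE; edgeR, adjusted p = 0.55). Sparc, a collagen-binding matrix protein gene, averaged 32.6 ± 21.1 TPM in labelled knockout libraries and 17.3 ± 2.66 TPM in Control libraries (SD, n = 5 each), with 69.0 TPM in labelled knockout library 4. Smoc1, the most abundant, was at a log2 fold change of 0.05 (standard error 0.15).

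Interstitial matrix partners had a median of 0.11 over 14 tested genes, with 10 above 0 and 4 below, and -0.30 with 2 above and 12 below without labelled knockout library 4. Eln, encoding elastin, had a log2 fold change of 1.20 (standard error 0.56), Fmod, the collagen-binding fibromodulin, -1.11 (0.54) and Fn1, fibronectin, 0.09 (0.23). Other matrix proteases, activators and inhibitors had a median of 0.10 over 14 genes, with 9 above 0 and 5 below. Among them the cathepsin gene Ctss had 19.1, 18.2, 19.4, 36.3 and 17.4 TPM in labelled knockout libraries, against 11.7, 14.8, 8.82, 15.4 and 15.1 TPM in Control libraries. All 5 labelled knockout libraries lay above all 5 Control libraries in TPM, as was the case for 1.31% of all tested genes. Ctss did not pass (edgeR log2 fold change 0.71, standard error 0.21, adjusted p = 0.293). Plaur, the urokinase receptor gene, was at 1.13 (standard error 0.50) and Plg, plasminogen, at 0.05 (standard error 0.17). Collagen receptors and uptake genes had a median of 0.13 over 10 genes, with 6 above 0 and 4 below, among them Lair1 at 0.68 (standard error 0.32), Mrc2 at 0.64 (0.50) and Itgb1 at -0.08 (0.12).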

How the data were processed

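RNA of 10 whole-liver libraries was compared between 5 labelled Alk1-HEC-KO and 5 labelled Control. The estimated counts per gene were deposited by the authors, as were the TPM values, 1 table of each per library. The tools Trim Galore 0.6.4 and kallisto 0.4.6 and the build GRCm38.p6 are named in the submitters' processing notes, and strand use and the step from transcripts to genes are not given in the sources used here. Symbols came from GENCODE's GRCm38 annotation, which matched 55144 of 55385 IDs. The other 241 held at most 0.013% of a library's counts.

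Estimated counts were rounded (38.3% of nonzero values were whole within 1e-06), filtered with filterByExpr to 12872 genes, scaled by TMM (0.869 to 1.107) and tested with edgeR 4.0.16's quasi-likelihood test (R 4.3.3, group as the term, Benjamini-Hochberg over all tested genes, called under 0.05). The biological coefficient of variation was 0.272. Standard errors come from the quasi-likelihood F. Scripts were tested on simulated data. Low-count members were compared by exact permutation on log2(TPM + 0.1), whose p is left out where a member reached 10 counts through 1 group. Gene lists and members were chosen with earlier results of these data known.

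The genes named are Acvrl1, called members, all tested members of the basement membrane, fibrillar, lysyl oxidase, MMP and TIMP families, the 4 with the smallest p and the most abundant of other member families, and from each pathway list the 2 with the smallest p and the most abundant. Untested members are named by counts or lack of overlap. Saa1, Vwf, the called endothelial markers, Col6a3 and low-count members beyond that were named after their values were seen.

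Replicate numbers are in the labels, with nothing that ties equal numbers to each other, and were not taken as pairs. Alternatives were DESeq2 1.42.0, limma 3.58.1 on log2(TPM + 1) and log2(TPM + 0.1), other scalings, filters and thresholds, unrounded counts, a replicate block, file-number runs, and left-out libraries. Offsets for average transcript length were chosen after seeing the data.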

Additional observations from a re-analysis of the deposited data

Results flagged for a closer look

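In 12 of 70 groups of 5 values checked, 1 library stood apart from the other 4 of its group, by a Dixon ratio above 0.71. Independent, normally distributed values would pass that limit about 1 time in 20. The groups checked are not independent, since they come from the same libraries and include sums of the same genes. Of the 12, 8 were labelled knockout library 4. In that library the fibrillar genes Col3a1 and Col1a1 had 19.0 and 7.76 TPM, the type VI chains Col6a1 and Col6a2 had 3.40 and 3.22 TPM, Mmp23 had 2.38 TPM and Loxl3 had 0.784 TPM, each the highest of its group. Its summed fibrillar level of 42.4 TPM was likewise the highest, and its log2 ratio of basement membrane to fibrillar sums, 2.23, the lowest. The same library was the highest in the marker sums of stellate, smooth muscle, endothelial and blood cells given above, whose part in these values was not tested.

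Of the other 4, Mmp17 had 0.193 TPM in labelled knockout library 5. In Control libraries, Loxl1 with 0.871 TPM and Col25a1 with 0.617 TPM were high in library 4, and Col14a1 with 9.39 TPM in library 2.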

How the results depend on the processing

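No member was called in either direction with the main settings. Among members, 1 was called higher at an adjusted p under 0.1 (Col4a1, where 0.249% of all tested genes were called higher), 1 with DESeq2 (Col4a1, 0.638%), 1 when genes with at least 10 counts were kept (Col28a1, 0.152%) and 2 with no filter (Col4a1 and Col28a1, 0.247%). With 1 library left out it was 0 to 2, the 2 being Col4a1 and Col15a1 without labelled knockout library 1 (0.307%). The calls of Col28a1 test nothing, since it became a member through the labelled knockout libraries alone. Over all genes, 24 were higher and 22 lower, against 82 and 70 with DESeq2, 68 and 51 with no filter, and 2 and 3 with the run as a covariate. Limma on log2(TPM + 1) called 13 lower, and leaving out the libraries rich in Saa1 left 11 higher. With 1 library left out, 18 to 40 were higher and 15 to 43 lower, the most without labelled knockout library 1. DESeq2 gave no p for Col1a1, Col3a1 and Mmp12. The causes of these shifts were not tested.

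With the run as a covariate, median log2 fold changes were 0.26 for basement membrane, -0.24 for fibrillar, -0.27 for fibril-associated, -0.30 for the beaded filament to transmembrane collagens, -0.47 for soluble and -0.13 for membrane-anchored MMPs, -0.10 for lysyl oxidases, -0.05 for collagen modification, -0.39 for interstitial partners and -0.03 for other proteases. In that fit these genes turned below 0: Col18a1 (-0.03), Col4a5 (-0.61), Col3a1 (-0.51), Col1a1 (-0.51), Col1a2 (-0.24), Loxl1 (-0.85), Loxl3 (-0.10), Mmp2 (-0.47), Mmp12 (-0.83), Mmp14 (-0.04), Mmp23 (-1.18), Mmp17 (-0.09), Timp2 (-0.38), Col16a1 (-0.18), Col6a1 (-0.30), Col6a2 (-0.72), Bmp1 (-0.03), Smoc1 (-0.19), Eln (-0.05), Fn1 (-0.25), Plg (-0.03) and Mrc2 (-0.34).

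Without the 3 libraries over 1000 TPM of Saa1, medians were -0.20 for fibrillar, -0.41 for fibril-associated and -0.15 for beaded filament to transmembrane collagens, -0.24 for membrane-anchored MMPs, -0.04 for lysyl oxidases, -0.01 for collagen modification, -0.34 for interstitial partners and -0.04 for receptors, and the basement membrane minus fibrillar difference was 0.63. Signs turned for Col4a5 (-0.28), Col3a1 (-0.66), Col1a1 (-0.20), Loxl1 (-0.04), Loxl3 (-0.19), Mmp23 (-0.51), Mmp17 (-0.18), Timp2 (-0.29), Col16a1 (-0.23), Col6a1 (-0.15), Col13a1 (-0.03), Col6a2 (-0.55), Smoc1 (-0.01) and Itgb1 (0.01). On TPM, limma gave -0.01 for Col3a1, -0.07 for Col20a1 and 0.03 for P4hb with a pseudocount of 1, and -0.09, -0.20 and 0.03 for the same genes with 0.1. Length offsets turned Col20a1 to -0.41.

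Replicate numbers did not pair the libraries: correlations of deviations between equal numbers were 0.276, 0.084, -0.1, -0.038 and 0.108, and 2 of the 5 labelled knockout libraries correlated best with their own number. With the replicate block, 16 genes were higher and 24 lower, 0 members were called, Col4a1 was at 1.05, and signs turned for Col4a5 (-0.11), Col3a1 (-0.08), Mmp23 (-0.08) and Timp2 (-0.02).

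Leaving out 1 library moved the fibrillar median between -0.29 and 0.82, the fibril-associated between -0.48 and 0.13, the membrane-anchored MMP between -0.12 and 0.52, collagen modification between -0.03 and 0.22, the beaded filament to transmembrane collagens between -0.12 and 0.49, lysyl oxidases between -0.11 and 0.65, interstitial partners between -0.30 and 0.17, and receptors between -0.07 and 0.29, each lowest without labelled knockout library 4. The same library gave the lowest value for Col1a1 (-0.29 to 1.21), Col1a2 (-0.15 to 0.82), Col3a1 (-0.66 to 0.89), Col4a5 (-0.54 to 0.41), Col5a1 (-0.09 to 0.50), Col6a1 (-0.12 to 0.57), Col6a2 (-0.39 to 0.63), Col14a1 (-0.57 to 0.03), Col16a1 (-0.44 to 0.55), Col25a1 (-0.08 to 1.03), Loxl1 (-0.11 to 0.82), Loxl2 (0.04 to 0.77), Loxl3 (-0.22 to 0.21), Mmp2 (-0.31 to 0.32), Mmp23 (-0.77 to 0.71), Mrc2 (-0.06 to 0.84) and Timp2 (-0.28 to 0.23). Ranges that also reached or crossed 0 were those of the basement membrane minus fibrillar difference (-0.06 to 0.53), Col18a1 (-0.04 to 0.09), Col5a3 (-0.48 to 0.10), Fn1 (-0.02 to 0.26), Mmp19 (-0.02 to 0.10), Plg (0.00 to 0.18) and Smoc1 (0.00 to 0.14). Members with few counts are limited by depth, and the ratio interval of Mmp11 covers counting error only.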
